A study of Mus musculus with 22 samples.

Results

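The 78 genes described here encode proteins of the mitochondrial ribosome (mitoribosome), the particle that translates the few messages made from mitochondrial DNA. They are all protein-coding genes of the GENCODE mouse annotation whose symbol starts with Mrpl (49 genes, named for the large subunit) or Mrps (29 genes, named for the small subunit), out of 54356 genes, 21815 of them protein-coding, in the quantification. RNA of C57BL/6 mouse embryos at E13.5 was sequenced from libraries made with a stranded mRNA kit. The left ventricle (LV) was sampled in 4 Prdm16 conditional knockout (cKO) and 4 control libraries, the right ventricle (RV) in 4 cKO and 4 control libraries, and the whole heart in 3 cKO and 3 control libraries. Prdm16 encodes a zinc-finger transcriptional regulator. The cKO carries a conditional deletion of Prdm16, and the controls are littermates that the labels call WT and mark Mock under genetic manipulation. The Cre driver, and with it the cells in which the gene was deleted, is not given in the sources used here. Nor do they say which libraries share a litter, or whether an LV and an RV library came from 1 heart, so p-values measure the spread between these samples only.

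The mitoribosome has a large subunit, which forms peptide bonds and lies at the inner membrane through its exit tunnel, and a small subunit, which reads the message. Its RNAs are encoded in mitochondrial DNA, whereas all of its proteins are encoded in the nucleus, made in the cytosol and imported. Its products are subunits of the respiratory chain and the ATP synthase, on which the heart muscle cell depends, and variants of several of these genes, among them human MRPL3, MRPL44, MRPS22 and MRPS14, have been linked to inherited cardiomyopathy.

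Sequencing depth was 14508722 to 22830716 assigned reads per ventricle library and 38590751 to 62004017 per heart library. The lowest read total of any mitoribosomal gene in any library was 228, so all 78 passed the filter on low counts in both fits and none was lost. CPM are reads scaled to library size, with TMM factors for the mitoribosomal genes below and by library totals alone for Prdm16. Prdm16 itself was at 22.2 to 24.1 CPM in LV cKO against 45.8 to 57.7 in LV control. In the RV it was at 21.8 to 25.2 CPM in cKO against 36.8 to 43.2 in control. In whole hearts it was at 19.1 to 22.3 CPM in cKO against 36.9 to 45.1 in control. On library totals, all cKO libraries were below all controls of their tissue, with transcripts remaining. In TPM, LV cKO 1 at 5.75 was above LV control 1 at 5.37. The whole-gene count does not isolate the deleted exons. The libraries held heart muscle, the chamber being known from the labels alone: all 12 cardiomyocyte markers stood above 36 TPM (a length-corrected transcript abundance) in every library. A pair of libraries stood apart. RV control 2 had a summed level of 10 mesenchymal and valve markers of 1411 TPM, against 611 to 669 TPM in the other RV controls. Heart control 1 had 17807 genes with at least 10 reads, against 18885 to 19522 in the other hearts. It was also the shallowest heart library, with 38590751 assigned reads against 51541253 to 62004017, and such a gene count depends on depth.

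Promoter sequences of 5 members are shown because the results below turn on these genes: Mrpl12, Mrpl36, Mrpl45 and Mrps27 were the 4 genes called lower in the whole heart, and Mrpl10 was the 1 gene called higher, in the RV. Each is the RefSeq promoter window on GRCm38.p6, from 250 bases before to 50 bases after the annotated start, 5′ to 3′ on the plus strand, with matches to searched motifs in capitals.
Mrpl12, chr11:120484387-120484686: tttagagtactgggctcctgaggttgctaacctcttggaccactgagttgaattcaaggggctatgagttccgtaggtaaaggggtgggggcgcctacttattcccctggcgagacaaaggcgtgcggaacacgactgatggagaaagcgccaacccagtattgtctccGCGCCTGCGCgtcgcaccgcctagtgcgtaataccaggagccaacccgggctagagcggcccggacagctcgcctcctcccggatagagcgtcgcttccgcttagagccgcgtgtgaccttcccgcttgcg
Mrpl36, chr13:73330759-73331058: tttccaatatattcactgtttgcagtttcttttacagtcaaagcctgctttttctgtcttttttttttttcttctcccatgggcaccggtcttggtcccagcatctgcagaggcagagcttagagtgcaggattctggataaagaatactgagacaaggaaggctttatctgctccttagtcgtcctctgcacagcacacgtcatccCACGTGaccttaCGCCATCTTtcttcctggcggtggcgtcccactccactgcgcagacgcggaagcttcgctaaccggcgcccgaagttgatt
Mrpl45, chr11:97315466-97315765: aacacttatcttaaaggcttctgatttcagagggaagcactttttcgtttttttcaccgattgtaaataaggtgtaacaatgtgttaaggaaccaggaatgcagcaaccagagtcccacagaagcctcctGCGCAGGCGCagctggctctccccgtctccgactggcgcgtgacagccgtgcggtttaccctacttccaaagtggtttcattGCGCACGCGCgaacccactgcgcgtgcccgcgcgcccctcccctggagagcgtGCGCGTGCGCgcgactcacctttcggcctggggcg
Mrps27, chr13:99344536-99344835: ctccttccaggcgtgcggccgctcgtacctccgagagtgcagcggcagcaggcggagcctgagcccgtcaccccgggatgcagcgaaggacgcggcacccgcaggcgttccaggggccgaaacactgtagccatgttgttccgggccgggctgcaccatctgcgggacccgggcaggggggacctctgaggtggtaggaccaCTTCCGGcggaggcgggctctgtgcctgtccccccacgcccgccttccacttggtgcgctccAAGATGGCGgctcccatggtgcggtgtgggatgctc
Mrpl10, chr11:97041332-97041631: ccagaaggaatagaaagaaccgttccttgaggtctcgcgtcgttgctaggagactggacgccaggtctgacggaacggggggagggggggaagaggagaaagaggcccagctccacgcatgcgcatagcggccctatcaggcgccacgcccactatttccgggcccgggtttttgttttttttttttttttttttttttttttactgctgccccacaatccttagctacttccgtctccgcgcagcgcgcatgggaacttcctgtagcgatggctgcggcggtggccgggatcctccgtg
The capitals mark matches on either strand to GCGC, any base and TGCGC (the NRF1 motif) in Mrpl12 and Mrpl45, to CACGTG (the E-box) and AAGATGGCG (the YY1 motif) in Mrpl36, and to CCGGAAG (an ETS-family motif) and AAGATGGCG in Mrps27. The Mrpl45 window held 3 NRF1 matches, and the Mrpl10 window held none of the letters searched.

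RefSeq promoter windows were found for 69 of the 78 members. The ETS letters stood in 25 of the 69 (36.2%), against 11.9% of all 17491 promoters in the same table. The NRF1 letters stood in 13 (18.8%), against 6.6% of all promoters, and the YY1 letters in 8 (11.6%), against 1.94%. At least 1 of these 3 motifs was present in 40 member promoters (58%), against 18.6% of all promoters, and matches of different motifs did not overlap in any member. The E-box stood in 5 member promoters (7.25%), against 7.9% of all, the TATA letters TATAAA in 4 (5.8%), against 13.3%, and the letters TNAAGGTCA (the ERR motif) in none, against 1.05%. These are matches of letters in 1 window per gene, and factor binding was not measured.

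The members are spread over 17 chromosomes, with 11 on chromosome 11, 8 on chromosome 17 and 7 on chromosome 6. For 23 of them (29.5%), the start of a gene on the opposite strand lay head to head within 1000 bases, against 7.98% of all protein-coding genes. In GENCODE coordinates on GRCm38, Mrpl12 lies at chr11:120484613-120489065, Mrpl36 at chr13:73328513-73332178, Mrpl45 at chr11:97315716-97329920, Mrps27 at chr13:99344786-99415562 and Mrpl10 at chr11:97041560-97049213, all on the plus strand.

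Over all 22 libraries, the mean level per gene, on the TPM scale that corrects for transcript length, spanned 9.96 TPM for Mrpl1 to 563 TPM for Mrps21. After Mrps21, a small-subunit protein with a bacterial counterpart, the most abundant were Mrpl42 (254 TPM) and Mrpl52 (214 TPM). The least abundant after Mrpl1, a large-subunit protein with a bacterial counterpart, were Mrps30 (13.8 TPM) and Mrpl39 (19.1 TPM). The level of Mrps21 depends on 1 short transcript: an annotated coding transcript with a mean effective length of 21.4 bases carried 77.2% of its TPM but 20.9% of its reads. Of the TPM of all members together, 70% fell on transcripts annotated as protein-coding, 15% on processed transcripts, 9.24% on retained introns and 5.77% on transcripts annotated for nonsense-mediated decay. By reads, 79% fell on protein-coding transcripts. Levels of single genes in TPM therefore depend on how Salmon divided reads among transcripts, and changes were tested on the read counts summed per gene.

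The large-subunit genes summed to 2767, 2853, 2477 and 2811 TPM in LV cKO, against 3071, 3009, 2971 and 3025 TPM in LV control. The small-subunit genes summed to 1743, 1802, 1716 and 1828 TPM in LV cKO, against 2077, 1872, 1950 and 1935 TPM in LV control. In both sums all 4 LV cKO libraries lay below all 4 LV controls. LV cKO 3, with the lowest sums of its group, also had the highest summed level of erythroid markers (93010 TPM), and the effect of these transcripts on the sums was not tested. In the RV the large-subunit sum was 3113 ± 101 TPM in cKO and 3312 ± 61.4 TPM in control, and the small-subunit sum 2034 ± 96.3 TPM in cKO and 2073 ± 98.6 TPM in control (SD, n = 4 each); every RV cKO library was below every RV control for the large subunit, while the small-subunit groups overlapped. In whole hearts the large-subunit sum was 2858 ± 27.5 TPM in cKO and 2999 ± 60.1 TPM in control, without overlap, and the small-subunit sum 1747 ± 32.6 TPM in cKO and 1800 ± 71.5 TPM in control, with overlap (SD, n = 3 each). The ratio of the small-subunit to the large-subunit sum was 0.585 to 0.693 over the 22 libraries. Mrps21, whose TPM depends on the short transcript named above, is a large part of the small-subunit sum. It was at 665, 632, 649 and 803 TPM in RV cKO, against 642, 561, 696 and 663 TPM in RV control. The small-subunit sum and the ratio were not taken without Mrps21, so the overlap in the RV may depend on that gene. Together the 78 genes made up 0.419% to 0.551% of all TPM.

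**Figure D1:**
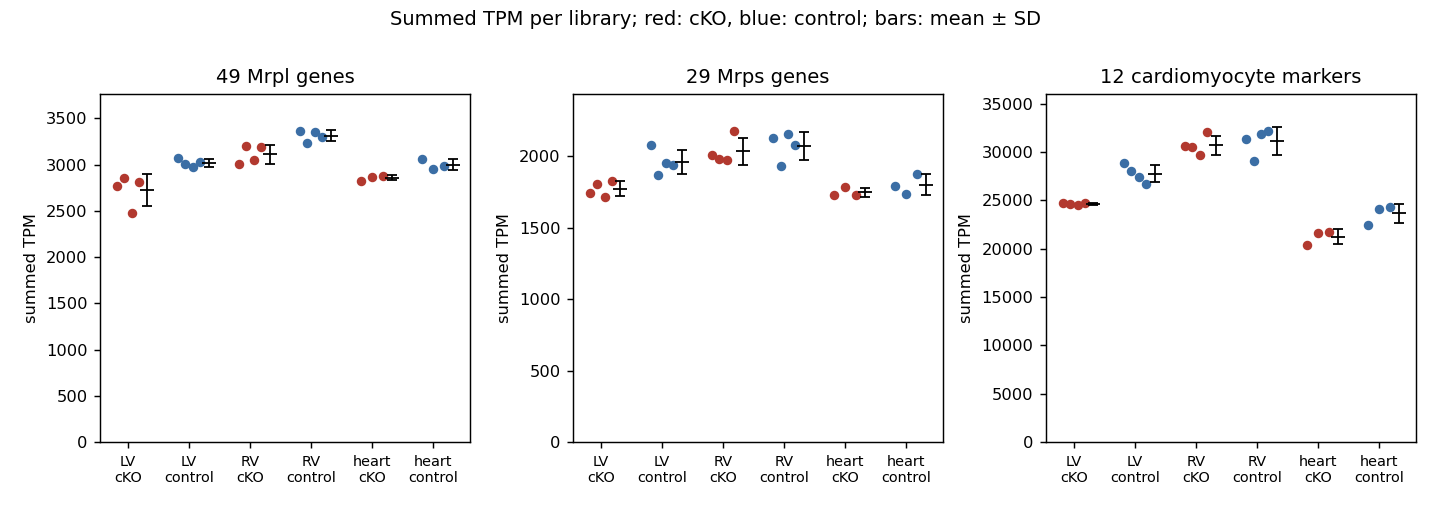
Summed TPM per library of the 49 Mrpl genes, the 29 Mrps genes and 12 cardiomyocyte marker genes. In LV, RV and whole heart, cKO (red) stands left of control (blue). Points are libraries and bars are group means ± SD. The LV cKO libraries lie below all LV controls in all 3 sums, and the RV libraries have the highest group means of both ribosomal sums.

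In LV cKO, 49 of the 78 genes were lower than in LV control and none was higher (edgeR quasi-likelihood F test, Benjamini-Hochberg adjusted p under 0.05 over 16448 genes). Over all genes tested, 13.4% were called lower and 12.3% higher, 25.6% in either direction. The median log2 fold change was -0.18 over the members and -0.000829 over all genes tested, and 76 of 78 members had a negative value. At an unadjusted p under 0.05, 59 members were lower and none higher. The share of all genes at this unadjusted threshold was not counted, here or in the comparisons below. In 52 members (66.7%) every LV cKO library was below every LV control, against 15% of all genes. In bulk samples, fewer cells of a type and less RNA per cell cannot be told apart.

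Mrpl12 had the largest drop. Its protein is the mitochondrial counterpart of bacterial L7/L12, which forms the stalk where translation factors dock, and it is also known to bind the mitochondrial RNA polymerase. It had 80.5, 81.0, 82.7 and 81.05 CPM in LV cKO, against 126, 118, 117 and 114 CPM in LV control, so the groups were far apart and the cKO values close together. It was 1.46-fold lower in LV cKO (log2 fold change -0.55, SE 0.06, adjusted p = 2.05e-06). Mrpl10, its partner in the stalk, did not follow: it had 52.3, 51.2, 50.9 and 50.8 CPM in LV cKO, against 48.3, 51.7, 50.4 and 48.9 CPM in LV control, with overlap (log2 fold change 0.04, SE 0.04, adjusted p = 0.541).

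Other large-subunit genes fell in the same comparison. Mrpl36, a small zinc-binding protein with a bacterial counterpart, had 26.9, 27.0, 30.0 and 24.4 CPM in LV cKO, against 36.0, 33.1, 35.2 and 35.2 CPM in LV control (log2 fold change -0.36, SE 0.05, adjusted p = 7.61e-05). Mrpl42, specific to mitochondrial ribosomes, had 68.5, 65.0, 69.1 and 71.0 CPM in LV cKO, against 93.1, 92.4, 92.6 and 88.7 CPM in LV control (log2 fold change -0.42, SE 0.07, adjusted p = 0.000177). Neither gene overlapped between the groups. Mrpl45, which sits near the tunnel exit and ties the large subunit to the inner membrane, had 41.9, 35.4, 38.4 and 39.2 CPM in LV cKO, against 53.0, 54.3, 51.1 and 50.3 CPM in LV control (log2 fold change -0.43, SE 0.08, adjusted p = 0.000454). Mrpl37, specific to mitochondrial ribosomes, had 50.4, 49.2, 49.4 and 50.1 CPM in LV cKO, against 63.8, 61.4, 62.2 and 57.6 CPM in LV control (log2 fold change -0.30, SE 0.05, adjusted p = 0.000127). All cKO values of both genes lay under all control values.

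Among small-subunit genes, Mrps27, a mitochondria-specific RNA-binding pentatricopeptide-repeat protein, had 39.8, 38.2, 37.0 and 36.7 CPM in LV cKO, against 57.9, 50.2, 52.1 and 49.01 CPM in LV control (log2 fold change -0.46, SE 0.08, adjusted p = 0.000227). Mrps16, a bacterial homolog, had 24.3, 24.2, 22.1 and 24.04 CPM in LV cKO, against 32.1, 29.5, 30.1 and 31.1 CPM in LV control (log2 fold change -0.37, SE 0.06, adjusted p = 9.65e-05). Mrps35, mitochondria-specific, had 31.6, 30.6, 31.7 and 30.5 CPM in LV cKO, against 41.7, 42.2, 39.5 and 37.6 CPM in LV control (log2 fold change -0.37, SE 0.06, adjusted p = 0.000206). In all 3 the groups were apart. For Mrps16 only 2.43% of the TPM fell on protein-coding transcripts, and 92.7% of its reads were assigned to 1 transcript annotated as processed transcript, so its values mostly describe that transcript. On protein-coding transcripts only, its log2 fold change was -0.46 (adjusted p = 0.098). Mrps36 had 21.1, 21.6, 19.5 and 18.7 CPM in LV cKO, against 29.8, 26.4, 28.1 and 28.7 CPM in LV control (log2 fold change -0.48, SE 0.08, adjusted p = 0.000361). The Mrps36 product is now known as a subunit of the alpha-ketoglutarate dehydrogenase complex of the citric acid cycle rather than a ribosomal protein, so this symbol is a member by name only.

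**Figure D2:**
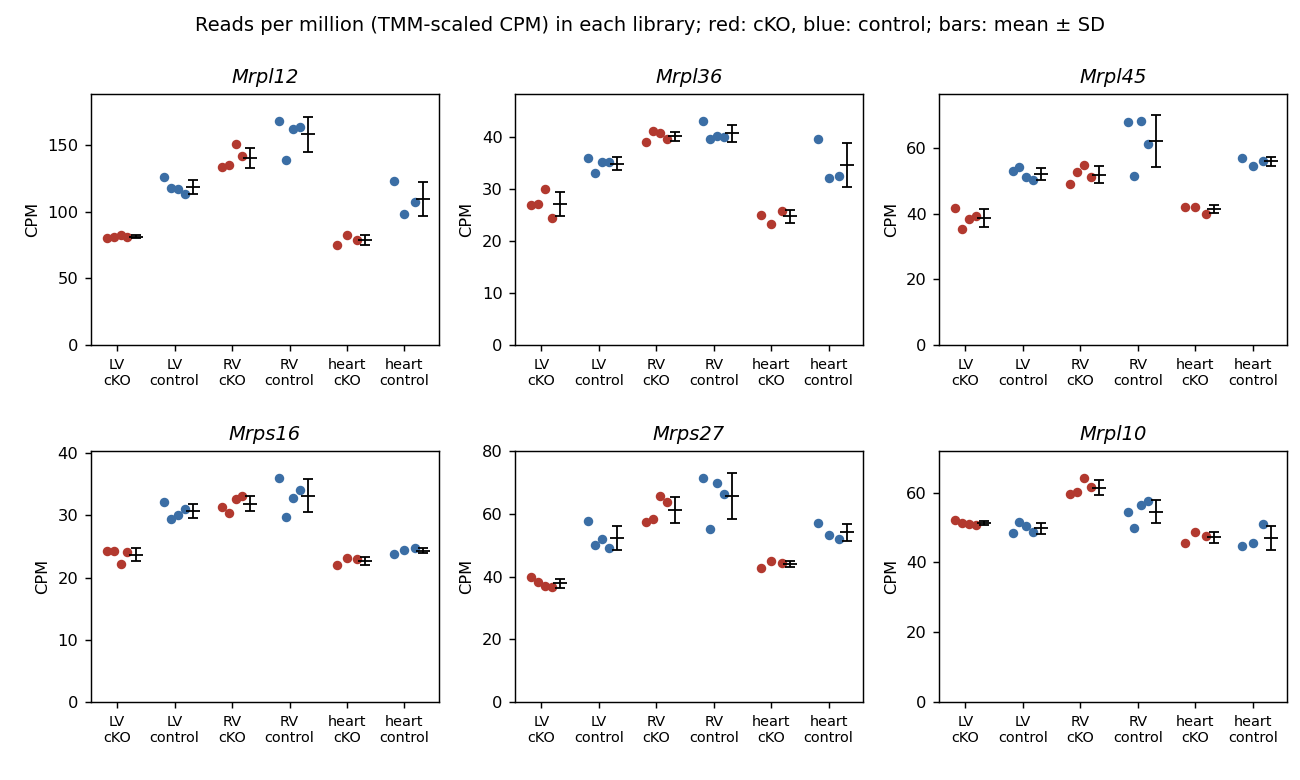
TMM-scaled CPM of Mrpl12, Mrpl36, Mrpl45, Mrps16, Mrps27 and Mrpl10 in each library. In LV, RV and whole heart, cKO (red) stands left of control (blue). Points are libraries and bars are group means ± SD. The LV cKO points of the first 5 genes lie below all LV control points, and Mrpl10 differs without overlap in the RV only, where cKO is higher.

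Genes called in the LV came from both subunits, and from proteins with and without a bacterial counterpart. By symbol, 31 of 49 Mrpl genes (median log2 fold change -0.19) and 18 of 29 Mrps genes (-0.18) were lower. Among large-subunit genes, 18 of 29 with a bacterial counterpart (median -0.19) and 12 of 19 specific to mitochondria (median -0.17) were lower. The 18 were Mrpl2, Mrpl4, Mrpl9, Mrpl12, Mrpl13, Mrpl14, Mrpl15, Mrpl18, Mrpl19, Mrpl21, Mrpl23, Mrpl24, Mrpl27, Mrpl28, Mrpl34, Mrpl35, Mrpl36 and Mrpl47, and the 12 were Mrpl37, Mrpl38, Mrpl39, Mrpl40, Mrpl41, Mrpl42, Mrpl45, Mrpl46, Mrpl48, Mrpl51, Mrpl54 and Mrpl58. Among small-subunit genes, 9 of 15 with a bacterial counterpart (median -0.16) and 6 of 10 specific to mitochondria (median -0.19) were lower. The 9 were Mrps2, Mrps5, Mrps7, Mrps9, Mrps10, Mrps15, Mrps16, Mrps21 and Mrps24, and the 6 were Mrps18b, Mrps22, Mrps25, Mrps27, Mrps31 and Mrps35. Mrpl55, Mrps28 and Mrps36, placed in neither class here, were lower as well. Mrps18a and Mrps30, whose proteins sit in the large subunit despite their symbols, had log2 fold changes of -0.21 (adjusted p = 0.00396) and -0.18 (adjusted p = 0.0591). With them counted there and Mrps36 left out, 32 of 51 large-subunit and 16 of 26 small-subunit genes were lower. The paralogs Mrps18a, Mrps18b and Mrps18c, the last 2 of which belong to the small subunit, had log2 fold changes of -0.21, -0.21 (adjusted p = 0.0378) and -0.14 (adjusted p = 0.0962). Mrpl58, a peptidyl-tRNA hydrolase built into the large subunit, fell by 0.15 on the log2 scale (SE 0.04, adjusted p = 0.00558; on protein-coding transcripts only -0.10, adjusted p = 0.41). Mrps18b lost its call without LV cKO 2, cKO 3 or cKO 4, or LV control 1, control 2 or control 3 (adjusted p = 0.0545 to 0.121).

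The 49 called values ran from -0.55 to -0.12 and the 29 others from -0.20 to 0.07. Those 29 include 3 of the 4 whose human counterparts are linked to cardiomyopathy. Mrpl3 had a log2 fold change of -0.20 (SE 0.07, adjusted p = 0.052), Mrps14 of -0.16 (SE 0.07, adjusted p = 0.0891) and Mrpl44 of -0.11 (SE 0.08, adjusted p = 0.379). The fourth, Mrps22, was lower in LV cKO, with 20.6, 20.2, 21.4 and 19.8 CPM against 25.9, 23.6, 26.7 and 23.5 CPM in LV control and no overlap (log2 fold change -0.28, SE 0.07, adjusted p = 0.00961). Mrps12, a protein of the decoding centre, had -0.07 (SE 0.06, adjusted p = 0.424). The uncalled genes nearest to 0 were Mrps23 (-0.03), Mrpl17 (-0.04) and Mrpl22 (-0.04), each with an SE of 0.05 to 0.07. The 2 members with a positive value were Mrpl10 and Mrps34 (0.07, adjusted p = 0.452; named after its value was seen).

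Over the 78 genes, Spearman's rho of the log2 fold change in the LV was -0.115 with mean TPM and -0.00272 with effective length. These are descriptions across genes measured in the same libraries. Members whose promoter held the YY1 letters were lower in 7 of 8 cases (median log2 fold change -0.267), against 34 of 61 without them (median -0.171). For the NRF1 letters the counts were 7 of 13 (median -0.178) with and 34 of 56 (median -0.18) without, and for the ETS letters 12 of 25 (median -0.162) with and 29 of 44 (median -0.204) without. Of the 23 genes with a head-to-head partner, 13 were lower in LV cKO. Of 22 partners tested, 7 were lower and 1 higher (median -0.11, against -0.166 for the members). In GENCODE, the start of Mrpl36 overlaps that of Ndufs6, a complex I subunit, which was also lower (log2 fold change -0.45, adjusted p = 0.000102). The Mrpl36 window printed above is set on the RefSeq start, further downstream, and is not this overlap. Mrps12 lies head to head with Sars2, the mitochondrial seryl-tRNA synthetase, which was lower (-0.43, adjusted p = 0.000284) while Mrps12 was not called. The strand setting used in counting is not given in the sources used here, and Mrpl36 and Ndufs6 overlap, so reads of that pair may not be fully separated. Mrpl23 has an annotated pseudogene, Mrpl23-ps1, which took 0 to 40.2 TPM in single libraries, so the values of Mrpl23 are uncertain (-0.34 in LV cKO, adjusted p = 0.00332, and 0.27 in heart cKO, SE 0.19, adjusted p = 0.535).

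The LV count depends on the scale. Without LV control 1, 32 members were lower. With reads on protein-coding transcripts only, 34 members were lower. With counts scaled by transcript length it was 26 (8.35% of all genes lower), and with limma on log2(TPM + 1) it was 20 (5.67% of all genes lower). In each of these settings none was higher. Some genes called lower had under 50% of their reads on protein-coding transcripts. These were Mrps16 (7.31%), Mrps24 (3.60%), Mrpl15 (20.8%), Mrpl23 (25.9%) and Mrpl51 (41.1%). DESeq2 called 45 lower and voom 56. The share of all genes called by each of these tools is not given here, nor beside their counts below.

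**Figure D3:**
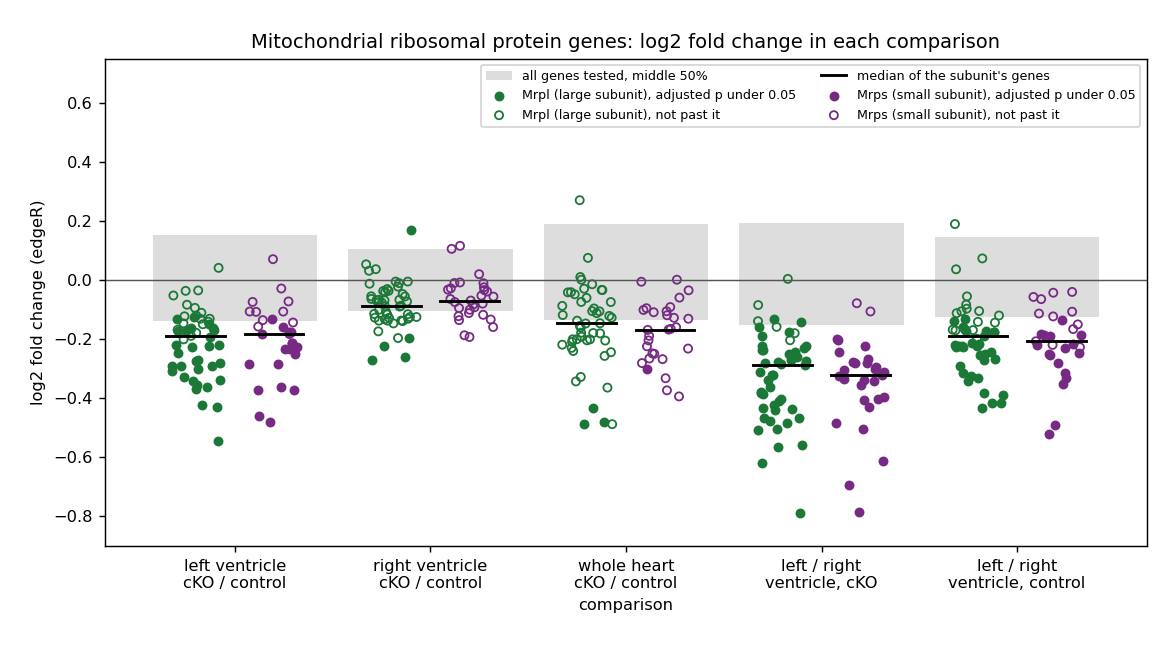
Log2 fold change of each of the 78 members, large and small subunit apart, in cKO over control for LV, RV and whole heart and in LV over RV for cKO and control; filled points passed an adjusted p of 0.05, the black line is the median and the grey band the middle 50% of all genes tested. The LV, and the LV over RV comparisons, lie largely below 0, while the RV points are close to it.

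In the RV the same comparison called few members. In RV cKO, 4 genes were lower and 1 was higher than in RV control. Over all genes tested, 4.19% were lower and 6.12% higher, 10.3% in either direction, so the share of members called lower (5.13%) was close to the share among all genes. The median log2 fold change of the members was -0.08, against -0.00538 over all genes, and 71 of 78 were negative. Every RV cKO library was below every RV control in 3 members (3.85%), against 5.14% of all genes, and above in 1.

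The 4 lower genes all encode large-subunit proteins. Mrpl55 had 21.4, 21.4, 22.3 and 22.3 CPM in RV cKO, against 24.5, 24.5, 27.6 and 25.3 CPM in RV control, without overlap (log2 fold change -0.22, SE 0.06, adjusted p = 0.0231). Mrpl45 had 48.98, 52.9, 54.9 and 51.1 CPM in RV cKO, against 67.9, 51.4, 68.5 and 61.2 CPM in RV control (log2 fold change -0.26, SE 0.07, adjusted p = 0.0324). Mrpl47, a counterpart of bacterial L29 near the tunnel exit, had 26.3, 30.5, 28.1 and 26.0 CPM in RV cKO, against 36.5, 29.01, 37.0 and 31.1 CPM in RV control (log2 fold change -0.27, SE 0.07, adjusted p = 0.0221). In Mrpl45 and Mrpl47 the overlap came from RV control 2, the lowest control in both. Mrpl53 had 27.7, 26.9, 29.4 and 30.7 CPM in RV cKO, against 33.6, 30.4, 35.1 and 32.1 CPM in RV control (log2 fold change -0.19, SE 0.05, adjusted p = 0.0217), again overlapping through RV control 2.

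Mrpl10 was the 1 member higher in cKO in any of the 3 tissues. It had 59.5, 60.3, 64.3 and 61.6 CPM in RV cKO, against 54.3, 49.99, 56.5 and 57.5 CPM in RV control, without overlap (log2 fold change 0.17, SE 0.04, adjusted p = 0.0152). Without RV cKO 3, its highest library, it was not called (0.15, adjusted p = 0.0555). Mrpl12, in contrast, had 134, 135, 151 and 142 CPM in RV cKO, against 169, 139, 162 and 164 CPM in RV control, with overlap (log2 fold change -0.17, SE 0.05, adjusted p = 0.0507).

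The RV count rests on single libraries. Without RV control 2, the library with the high mesenchymal marker sum, 21 members were lower and 1 higher, with 7.12% of all genes lower and a member median of -0.12. Of those 21, 19 were among the 49 of all 78 members lower in the LV, an overlap not counted over all genes. They included Mrpl12 (-0.23, adjusted p = 0.00113), which then no longer overlapped between the groups, and Mrpl3 (-0.28, adjusted p = 0.000489). Without RV cKO 1, cKO 2 or cKO 4, or RV control 1 or control 3, between 1 and 3 members were called in all. All 4 lower genes lost their call without RV cKO 1 and without RV control 3 (adjusted p = 0.0625 to 0.113), 3 without RV cKO 2 or RV control 1, 2 without RV cKO 4 and Mrpl45 also without RV control 4 (adjusted p = 0.0566). The count was 17 by voom (16 lower, 1 higher) and 0 with length-scaled counts, where 11 were lower and 1 higher at an unadjusted p under 0.05.

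In whole hearts, 4 members were lower in cKO and none was higher, against 2.07% lower and 1.96% higher over all 19160 genes tested (4.03% in either direction). The member median was -0.16, against 0.0149 over all genes, and 73 of 78 were negative. At an unadjusted p under 0.05, 33 members were lower and none higher, and DESeq2 called 15 lower and voom 16. With length-scaled counts, or limma on log2(TPM + 1), none was called, and 14 and 9 were lower at an unadjusted p under 0.05. In 41 members (52.6%) every heart cKO library was below every heart control, against 12.9% of all genes. The spread between libraries was wider here than in the ventricles, with a biological coefficient of variation of 0.184 against 0.0929.

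The 4 genes had also been called in the LV, as had 49 of all 78 members. Mrpl45 had 42.2, 42.2 and 40.1 CPM in heart cKO, against 57.1, 54.6 and 56.2 CPM in heart control (log2 fold change -0.43, SE 0.05, adjusted p = 0.00438), and it was the 1 member lower in all 3 tissues. Mrpl36 had 24.97, 23.3 and 25.8 CPM in heart cKO, against 39.5, 32.1 and 32.4 CPM in heart control (log2 fold change -0.49, SE 0.09, adjusted p = 0.0303). Mrpl12 had 74.97, 82.3 and 78.7 CPM in heart cKO, against 124, 98.5 and 107 CPM in heart control (log2 fold change -0.48, SE 0.09, adjusted p = 0.0241). None of these overlapped between the groups. Mrps27 had 42.8, 44.8 and 44.3 CPM in heart cKO, against 57.3, 53.2 and 52.1 CPM in heart control, also apart (log2 fold change -0.30, SE 0.06, adjusted p = 0.028). Mrpl40, with the most negative value of all (-0.49, SE 0.18, adjusted p = 0.226; named after its value was seen), was not called. The count was 1 without any single cKO library or control 3, 8 without heart control 1 and 9 without control 2. Mrpl45 was called in every case, while Mrpl12, Mrpl36 and Mrps27 lost their call without cKO 1, cKO 2, cKO 3 or control 3 (adjusted p = 0.0719 to 0.152).

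Across tissues, 68 of 78 members had a negative log2 fold change in all 3, and 28 were called lower in none. The 3 members lower in both ventricles, Mrpl45, Mrpl47 and Mrpl55, were 6.12% of those lower in the LV and 75% of those lower in the RV. Since 49 of all 78 members were lower in the LV, such an overlap says little, and it was not counted over all genes. Over the 78 genes, the LV and RV log2 fold changes had a Spearman's rho of 0.417 and a Pearson's r of 0.497, as a description across genes, and the LV value was the more negative in 72.

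**Figure D4:**
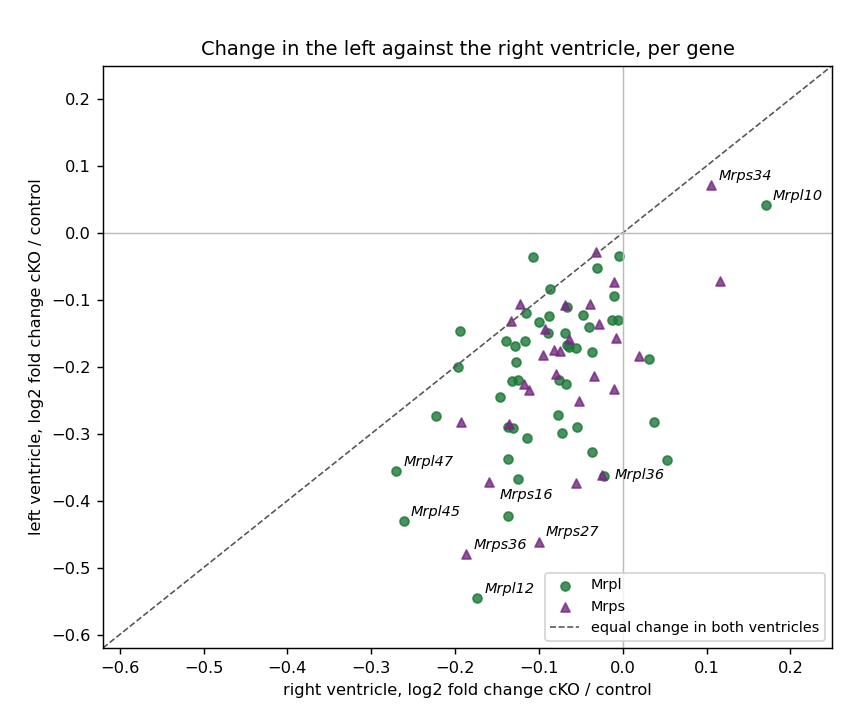
Log2 fold change of cKO over control in the LV (vertical) against the RV (horizontal) for each member, with the diagonal of equal change; the 2 comparisons share no library. In 72 of 78 members the LV value is the more negative, and Mrpl12 and Mrpl36 passed the test of the difference.

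Whether the cKO effect differed between the chambers was tested directly. The difference (LV effect minus RV effect) passed the threshold for 2 members, both more negative in the LV, against 0.973% of all genes more negative and 0.462% more positive (1.43% in either direction). At an unadjusted p under 0.05 the difference was negative in 22 members and positive in none, a count not made over all genes. For Mrpl12 the difference in log2 fold change was -0.37 (SE 0.08, adjusted p = 0.0231). For Mrpl36 it was -0.34 (SE 0.07, adjusted p = 0.0282): Mrpl36 had 39.0, 41.0, 40.7 and 39.5 CPM in RV cKO, against 43.1, 39.5, 40.1 and 40.0 CPM in RV control, which overlap (log2 fold change -0.02, SE 0.05, adjusted p = 0.85). Mrps16 narrowly missed the threshold (-0.32, SE 0.08, adjusted p = 0.0521), and Mrps27 had -0.36 (SE 0.10, adjusted p = 0.101). No member passed without LV cKO 2, LV control 1 or RV cKO 4 (adjusted p = 0.0523 to 0.063 for the pair), and 4 passed without RV control 2. Mrpl36 also missed the threshold without LV cKO 1, LV control 3, LV control 4, RV cKO 2 or RV cKO 3 (adjusted p = 0.0559 to 0.0691). The count was also 0 with length-scaled counts or limma on log2(TPM + 1), where 11 and 9 were negative at an unadjusted p under 0.05, and it was 5 by DESeq2 and 4 by voom.

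The LV also had less of these transcripts than the RV in control embryos. In controls, 47 of 78 members were lower in the LV than in the RV and none was higher, against 12% lower and 9.02% higher over all genes (21% in either direction). At an unadjusted p under 0.05, 61 were lower and 1 higher. The median log2 fold change was -0.195, with 30 of 49 large-subunit genes (-0.19) and 17 of 29 small-subunit genes (-0.21) lower. Mrpl12 was at 126, 118, 117 and 114 CPM in LV control, against 169, 139, 162 and 164 CPM in RV control, without overlap (log2 fold change -0.42, SE 0.05, adjusted p = 5.58e-05). Mrps22 was also lower (-0.52, SE 0.07, adjusted p = 9e-05), as were Mrps2, a bacterial homolog of the small subunit (-0.31, SE 0.04, adjusted p = 9.14e-05), and Mrpl19, a bacterial homolog of the large subunit (-0.39, SE 0.06, adjusted p = 0.000217). Without RV control 1 the count was 31, and without RV control 2 it was 60. With library totals 33 were lower and 1 higher, and with pseudogene reads added 47 were lower and 1 higher, which was Mrpl23 in both. With limma on log2(TPM + 1) 12 were lower, and on protein-coding transcripts only 35.

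In cKO embryos 70 of 78 members were lower in the LV than in the RV and none was higher, against 18.3% lower and 14.5% higher over all genes (32.8% in either direction). At an unadjusted p under 0.05, 73 were lower and none higher. The median was -0.31, with 43 of 49 large-subunit genes (-0.29) and 27 of 29 small-subunit genes (-0.32) lower. Every LV cKO library was below every RV cKO library in 67 members (85.9%), against 18.7% of all genes. In controls the same held for 29 members (37.2%), against 11% of all genes. Mrpl12 was at 80.5, 81.0, 82.7 and 81.05 CPM in LV cKO, against 134, 135, 151 and 142 CPM in RV cKO (log2 fold change -0.79, SE 0.06, adjusted p = 4.47e-08). Mrpl36 (-0.56, adjusted p = 8.08e-07), Mrps36 (-0.78, adjusted p = 2.76e-06) and Mrps27 (-0.69, adjusted p = 3.98e-06) had the next smallest p. With limma on log2(TPM + 1) 29 were lower, and on protein-coding transcripts only 58 were lower and 1 higher. The 8 members not called were Mrpl14, Mrpl22, Mrpl23, Mrpl24, Mrpl32, Mrpl33, Mrps17 and Mrps33. The genotypes share no library, and 46 genes were lower in the LV in both. This is out of 47 lower in controls and 70 lower in cKO, and the overlap was not counted over all genes. The test of whether the LV to RV gap differed between genotypes is the difference test above, which 2 members passed.

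Other genes of mitochondrial translation were also lower in LV cKO. Of 5 mitoribosomal proteins with other symbols, 3 were lower in LV cKO: Dap3, a GTP-binding protein of the small subunit (log2 fold change -0.21, adjusted p = 0.00355), the pentatricopeptide-repeat protein Ptcd3 (-0.33, adjusted p = 0.000218) and Chchd1 (-0.25, adjusted p = 0.01). Both mitochondrial ribosomal RNAs were lower, mt-Rnr1 of the small subunit (-0.26, SE 0.05, adjusted p = 0.000607) and mt-Rnr2 of the large subunit (-0.19, SE 0.04, adjusted p = 0.00448). Ribosomal RNAs carry little poly(A), so their levels in poly(A)-selected libraries are uncertain. Of 24 assembly factors, 9 were lower (median -0.13), among them the rRNA methyltransferases Nsun4 (-0.27, adjusted p = 0.00198), Mrm1 (-0.41, adjusted p = 0.00285) and Mrm3 (-0.42, adjusted p = 0.0041).

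Of 15 translation factors and related proteins, 10 were lower in LV cKO (median -0.205). Tufm, the elongation factor that brings aminoacyl-tRNA to the ribosome, fell by 0.46 on the log2 scale in LV cKO (adjusted p = 1.47e-05), by 0.19 in RV cKO (adjusted p = 0.0407) and by 0.37 in heart cKO (adjusted p = 0.0261). Lrpprc, which stabilises mitochondrial messages, was lower in all 3 tissues too (-0.44, -0.31 and -0.28 in LV, RV and heart, adjusted p = 9.16e-05, 0.00502 and 0.0153). Oxa1l, which inserts the new chains into the inner membrane, fell by 0.39 in LV cKO (adjusted p = 7.67e-06). Of 20 mitochondrial aminoacyl-tRNA synthetases, 11 were lower (median -0.20), with Ears2, for glutamate, at -0.99 in LV cKO (SE 0.06, adjusted p = 1.54e-08) and -0.47 in RV cKO (adjusted p = 0.000116). Its difference between the chambers was -0.52 (adjusted p = 0.00766). Of 11 genes of mitochondrial DNA transcription and maintenance, 6 were lower (median -0.14). Summed TPM did not fall in all of these lists. The translation factors summed to 494 ± 17.1 TPM in LV cKO and 557 ± 21.1 TPM in LV control (SD, n = 4 each). For the synthetases the sums were 931 ± 59.8 and 931 ± 88.3 TPM. For the genes of mitochondrial DNA transcription and maintenance they were 264 ± 37.5 and 237 ± 40.8 TPM.

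The messages that the mitoribosome translates, and those of the nuclear partners of its products, were also measured as RNA. Protein was not measured. Of 13 protein messages encoded in mitochondrial DNA, 7 were lower in LV cKO (median -0.22), 1 in RV cKO and none in heart cKO (median 0.07; none at an unadjusted p under 0.05 by edgeR, and none by DESeq2 or voom after adjustment). Of 83 nuclear genes of oxidative phosphorylation, 72 were lower and 1 higher in LV cKO (median -0.37), 8 lower and 1 higher in RV cKO (-0.11), and 20 lower in heart cKO (-0.25). Cytosolic ribosomal protein genes, by comparison, were lower in 22 of 76 cases in LV cKO (median -0.10; 10 lower with length-scaled counts, 37 by voom and none by limma on TPM), with 2 higher and none lower in RV cKO (median 0.02; -0.01 with length-scaled counts or limma on TPM; none lower at an unadjusted p under 0.05 by edgeR, and none by DESeq2 or voom) and none called in heart cKO (6 lower and 1 higher at an unadjusted p under 0.05 by edgeR, 2 lower by DESeq2 and none by voom). Whether these lists differ from the mitoribosomal genes was not tested.

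Of 12 transcriptional regulators linked to mitochondrial biogenesis, 7 were lower in LV cKO. Ppargc1a, a coactivator of mitochondrial gene programmes, had a log2 fold change of -0.85 in LV cKO (SE 0.06, adjusted p = 2.88e-08) and -0.27 in RV cKO (adjusted p = 0.00487), and the difference between chambers was -0.58 (adjusted p = 0.00176). In heart cKO it had -0.45 (adjusted p = 0.0547). Its relative Ppargc1b was lower in all 3 tissues, at -0.72, -0.41 and -0.61 in LV, RV and heart (adjusted p = 1.45e-05, 0.00321 and 0.0289). Mycn, a Myc-family factor of the growing myocardium, was lower in LV cKO (-0.81, adjusted p = 2.73e-08) and heart cKO (-0.69, adjusted p = 0.00334), with a chamber difference of -0.65 (adjusted p = 0.000654). In RV cKO Mycn had -0.16 and narrowly missed the threshold (adjusted p = 0.0633).

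**Figure D5:**
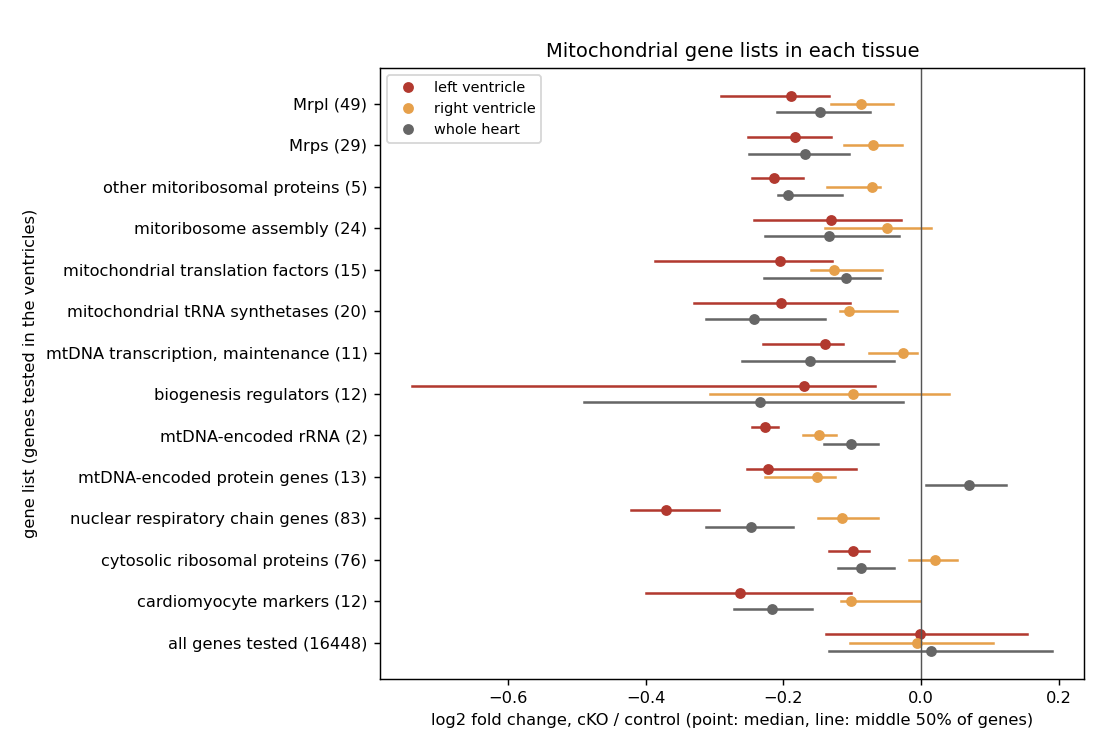
Median (point) and middle 50% (line) of the log2 fold change of cKO over control for the mitoribosomal genes and related gene lists in LV, RV and whole heart. The LV medians of the mitochondrial lists are below 0, the nuclear genes of oxidative phosphorylation having the lowest median at -0.37.

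Cell type markers moved in the same comparisons. In LV cKO, 9 of 12 cardiomyocyte markers were lower (median log2 fold change -0.26), with a summed level of 24487 to 24685 TPM in LV cKO against 26686 to 28825 TPM in LV control. In the same libraries 7 of 10 endothelial and endocardial markers were higher (0.20), summing to 749 to 832 TPM in LV cKO against 602 to 655 TPM in LV control, and 5 of 8 epicardial markers were higher (0.46). All 10 erythroid markers had positive values in LV cKO (median 0.71), with 1 called, summing to 37266 to 93010 TPM in LV cKO against 27569 to 52078 TPM in LV control. The smooth muscle sum was 59.0 to 64.9 TPM in LV cKO against 51.9 to 54.3 TPM in LV control, without overlap. In the RV, edgeR called none of the 12 cardiomyocyte markers (4 lower and 1 higher at an unadjusted p under 0.05). DESeq2 called 2 lower and voom 6. Their sum was 29689 to 32058 TPM in RV cKO against 29070 to 32182 TPM in RV control. Of 10 erythroid markers, 5 were higher in RV cKO (1.02). The endothelial and endocardial sum was 635 to 660 TPM in RV cKO against 568 to 618 TPM in RV control, without overlap. The epicardial sums overlapped, at 144 to 181 TPM in RV cKO and 138 to 189 TPM in RV control. In whole hearts 4 of 12 cardiomyocyte markers were lower in cKO (-0.22; sum 20353 to 21762 TPM in heart cKO against 22486 to 24316 TPM in heart control). In the same hearts 2 of 10 endothelial and endocardial markers were higher, summing to 646 to 728 TPM in heart cKO against 619 to 630 TPM in heart control. By edgeR none of the 10 mesenchymal and valve markers was called (7 higher at an unadjusted p under 0.05; 6 higher by DESeq2 and 4 by voom), and their sum was 2122 to 2389 TPM in heart cKO against 1802 to 1853 TPM in heart control, without overlap. Of 6 smooth muscle markers 1 was higher and 1 lower, with a sum of 104 to 127 TPM in heart cKO against 94.3 to 94.5 TPM in heart control. Between chambers, 10 of 12 cardiomyocyte markers were lower in LV than in RV cKO and 5 of 12 in LV than in RV control. The part of cell composition in the mitoribosomal results was not tested. The neural crest markers Foxd3, Sox10 and Th were at 0 in 17, 10 and 5 of 22 libraries.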

How the data were processed

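Polyadenylated RNA of mouse embryonic hearts and ventricles was sequenced in 22 libraries made with a stranded mRNA kit, with RNA integrity numbers of 6.1 to 10, per the labels' protocols. The authors deposited 1 transcript table per library with an estimated count of reads, TPM and an effective length, per the file headers. Salmon 1.2.1, DESeq2 1.22.2 and the builds GRCm38.p6 and mm10 are named, with no role, in the submitters' processing notes. The effective length is used as deposited. Of 140658 transcripts, 140137 matched GENCODE M21 and were summed per gene. The 521 others held at most 0.204% of the reads of a library.

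Summed estimated counts were rounded and tested with edgeR 4.0.16 (TMM, filterByExpr, quasi-likelihood F test) in R 4.3.3. Hearts (6 libraries, 19160 genes) and ventricles (16 libraries in 4 groups, 16448 genes) had a model each. P-values were adjusted by Benjamini-Hochberg over all genes tested, with a threshold of 0.05. TPM gave levels and sums, with no test. DESeq2 1.42.0, limma and voom (limma 3.58.1), other scalings and filters, transcript types, a replicate term and leaving out each library were the alternatives. The same replicate numbers in different groups were not taken as pairs, since the sources do not say that they mark pairs. In no pair of groups did every same-numbered pair of libraries correlate above 0.1. The nearest was LV cKO with RV cKO, at 0.0714 to 0.255, where each LV library correlated best with the RV library of its number. Whether these libraries came from the same hearts is not known.

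Members with values in full were chosen by a rule: highest and lowest TPM, smallest p in each comparison, log2 fold change nearest 0, and genes of known role. The members and gene lists were chosen with earlier results of these data known.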

Additional observations from a re-analysis of the deposited data

Results flagged for a closer look

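In 2 genes the cKO effect differed between the chambers by the test of the difference itself: Mrpl12 (-0.372, LV effect minus RV effect on the log2 scale) and Mrpl36 (-0.341). Single libraries stood apart from the other 3 of their group in 7 of 140 tested groups of 4 (genes and sums in each ventricle group), and chance gives about 5% of such groups. In RV cKO 4, Mrps16 was at 46.01 TPM (others 42.62 to 42.87), Mrpl53 at 52.67 TPM (others 45.88 to 46.92) and the sum of Mrps genes at 2177 TPM (others 1975 to 2007). Mrps21, a large part of that sum, was at 803 TPM in RV cKO 4, against 665, 632 and 649 TPM in RV cKO 1, 2 and 3. Its TPM depends on 1 short transcript. In RV control 2, Mrps27 was at 48.34 TPM (others 60.77 to 61.56). In LV cKO 4, Mrpl44 was at 16.2 TPM (others 19.33 to 19.81). In LV control 4, Mrps23 was at 52.26 TPM (others 45.81 to 46.91), and in LV control 2, Mrps30 was at 11.73 TPM (others 12.49 to 12.58).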

How the results depend on the processing

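Counts of members called lower in LV cKO, and in the LV against the RV, stayed within 1.5 times of the reported ones with RLE size factors, no filter, a 1 CPM filter, DESeq2, voom and added pseudogene reads. With length-scaled counts the members called were 26 in LV, 0 in RV and 0 in heart cKO, 0 for the chamber difference, 22 in LV against RV controls and 46 in LV against RV cKO. With limma on log2(TPM + 1) or log2(TPM + 0.1) they were 20, 1, 0, 0, 12 and 29 in the same order; these fits shift the median of all genes by 0.106 and 0.137 in LV against RV cKO. In the heart the count was 7 with a 1 CPM filter, 15 by DESeq2, 16 by voom, 23 with all 22 libraries in 1 fit and 1 with a replicate block. In the RV it was 17 by voom, 9 with library totals (8 lower, 1 higher) and 1 lower with the 8 libraries alone. For the chamber difference it was 4 with a 1 CPM filter or voom, 5 by DESeq2, 1 with all libraries and 1 with protein-coding transcripts only. The cause of these moves was not tested. The replicate block gave 48 in LV, 6 in RV and 3 for the difference; same-numbered libraries correlated at -0.256 to 0.255, though each LV cKO library correlated best with the RV cKO library of its number, as a hint from the data. Leaving out 1 library gave 32 to 55 in LV, 1 to 22 in RV, 1 to 9 in heart, 0 to 4 for the difference, 31 to 60 in controls and 65 to 70 in cKO between chambers. The summed TPM of all members then averaged 4446.8 to 4601.1 in LV cKO, 4920.5 to 5009.9 in LV control, 5071.2 to 5191.5 in RV cKO, 5343 to 5458.5 in RV control, 4579.5 to 4630 in heart cKO and 4769.9 to 4858.9 in heart control. Signs turned in LV against RV cKO for Mrpl53 (0.06344 with length-scaled counts, 0.1809 and 0.1839 with limma) and Mrpl17 (0.03648 and 0.03702 with limma), and in LV against RV controls for Mrpl58 (0.01096 and 0.0111 with limma). No member was lost to the filter on low counts, the lowest total being 228 reads. Whether depth limited the calls was not tested.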
